A study of Mus musculus with 6 samples.

Results

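The inflammatory caspases Casp1, Casp4 and Casp12, the apoptotic caspases Casp8, Casp9 and Casp6, the inflammasome adaptor Pycard and the pore-forming gasdermin Gsdmd were examined. They were taken from the deposited count table by gene name, as 8 of its 54532 genes. In the deposited coordinates, which for all of them equal GENCODE M21 on GRCm38, the protein-coding genes lie at chr9:5298517-5307265 (Casp1, ENSMUSG00000025888), chr9:5308828-5336783 (Casp4, ENSMUSG00000033538) and chr9:5345430-5373032 (Casp12, ENSMUSG00000025887). The apoptotic caspases lie at chr1:58795374-58847503 (Casp8, ENSMUSG00000026029), chr4:141793612-141815976 (Casp9, ENSMUSG00000028914) and chr3:129901425-129914103 (Casp6, ENSMUSG00000027997). Pycard (ENSMUSG00000030793) lies at chr7:127989708-127993867 on the minus strand, and Gsdmd (ENSMUSG00000022575) at chr15:75862327-75867408. The set was selected on its female and male levels in these same libraries, so those levels are a description and no p-value is given for them. The count table holds poly-A RNA-seq of untreated wild-type cultures labelled as mouse aortic endothelial cells, grown in serum-containing F-12 medium to which heparin and growth factors for endothelium had been added. There were 3 female and 3 male libraries, compared to ask how endothelial cells differ by sex. Neither age nor strain is stated, and nothing says that libraries of 1 sex stem from different mice. The p-values below therefore measure only the spread between these libraries, which may be technical.

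Caspases are cysteine proteases made as inactive precursors. In mouse, caspase-1 and caspase-4 (also called caspase-11) are switched on by inflammasomes or by bacterial lipopolysaccharide in the cytosol, and both cut gasdermin D, whose freed fragment forms membrane pores and ends the cell by pyroptosis. Pycard (ASC) links inflammasome sensors to caspase-1. Caspase-12 is a relative of these that has been tied to stress of the endoplasmic reticulum in mouse. Caspase-8 and caspase-9 start apoptosis, from death receptors and from mitochondria, and caspase-6 is among the caspases that act after them. In endothelium, pyroptosis through caspase-4 is known from endotoxin injury.

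The libraries held 17410996 to 22993574 counts. The Y-linked genes checked (Ddx3y, Eif2s3y, Kdm5d, Uty) had no female count, and Xist had at least 16787 counts in each female and at most 11 in each male library. Male replicate 3 stood apart, since log2 CPM (counts scaled to library size) correlated at 0.983 or more among female libraries, against 0.966 and 0.973 between it and the other male ones. Defining endothelial markers were nearly absent, which goes against the label. Of 12 such markers, 11 were below 1 CPM throughout, and Cdh5, Tie1 and Cldn5 had 0 counts in all libraries. The 12 summed to 2.99 to 4.67 CPM in female and 4.26 to 6.61 CPM in male libraries. The 8 fibroblast markers summed to 11814 to 12681 CPM in female and 6520 to 7124 CPM in male libraries. Of these, 5 rose and 1 fell in female by edgeR, so the levels of fibroblast markers moved with sex, and their part in the results below was not tested. The 6 smooth muscle markers summed to 117 to 120 CPM in female and 142 to 177 CPM in male libraries, with 1 of 4 tested lower, and 5 of 6 mesothelial and epithelial markers stayed under 1 CPM. In such bulk samples, fewer cells of a type and less RNA per cell cannot be told apart.

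The inflammatory caspases lie side by side on chromosome 9 and the apoptotic ones are scattered, so the windows around their transcription starts are shown first. Windows of 250 bases before to 50 after the start, from RefSeq on GRCm38.p6, were found for 7 of the 8 genes. The windows of the inflammatory caspases and that of Casp9 are given 5′ to 3′ on the plus strand, at chr9:5298267-5298566 (Casp1), chr9:5308599-5308898 (Casp4), chr9:5345226-5345525 (Casp12) and chr4:141793362-141793661 (Casp9). Capitals mark the kappaB consensus in Casp4, the gamma-activated site TTCNNNGAA and the CCAAT box in Casp12, and the GC box GGGCGG in Casp9.
Casp1: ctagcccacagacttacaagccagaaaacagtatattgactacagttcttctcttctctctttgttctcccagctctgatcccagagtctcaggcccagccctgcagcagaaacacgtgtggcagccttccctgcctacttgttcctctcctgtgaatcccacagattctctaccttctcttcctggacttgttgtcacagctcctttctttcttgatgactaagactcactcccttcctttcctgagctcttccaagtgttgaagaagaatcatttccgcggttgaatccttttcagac
Casp4: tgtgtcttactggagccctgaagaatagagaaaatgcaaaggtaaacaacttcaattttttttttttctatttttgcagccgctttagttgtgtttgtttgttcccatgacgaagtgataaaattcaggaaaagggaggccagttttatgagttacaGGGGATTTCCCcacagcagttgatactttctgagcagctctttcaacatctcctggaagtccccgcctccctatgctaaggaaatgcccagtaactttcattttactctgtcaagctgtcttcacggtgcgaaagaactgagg
Casp12: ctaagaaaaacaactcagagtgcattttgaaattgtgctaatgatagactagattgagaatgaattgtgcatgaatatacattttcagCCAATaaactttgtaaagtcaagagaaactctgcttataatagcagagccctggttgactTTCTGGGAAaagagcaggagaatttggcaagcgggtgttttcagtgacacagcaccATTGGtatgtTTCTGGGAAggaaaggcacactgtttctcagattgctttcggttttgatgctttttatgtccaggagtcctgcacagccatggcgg
Casp9: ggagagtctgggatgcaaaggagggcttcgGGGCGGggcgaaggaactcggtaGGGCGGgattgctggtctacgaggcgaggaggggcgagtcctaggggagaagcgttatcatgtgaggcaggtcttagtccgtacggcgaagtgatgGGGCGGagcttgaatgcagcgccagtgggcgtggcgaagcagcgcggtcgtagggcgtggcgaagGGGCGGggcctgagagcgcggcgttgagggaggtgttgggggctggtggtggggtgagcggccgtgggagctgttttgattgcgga

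The inflammatory windows were poorer in CpG than those of Casp9 and Casp6. Those of Casp1, Casp4 and Casp12 held 3, 5 and 3 CpG at 48%, 42% and 41% G+C, against 28 CpG (66% G+C) in the Casp9 window and 16 CpG (62% G+C) in the Casp6 window. The Casp8 window did not follow the other apoptotic caspases, with 5 CpG and 42% G+C. It lies 7128 bases inside the deposited start of the gene, so it belongs to a later start. The Pycard window held 3 CpG. Over all 32544 distinct windows the median was 7 CpG and 53% G+C.

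Motifs were searched on both strands. The kappaB consensus, which NF-kappaB binds, was met at 2 overlapping positions in Casp4, from 93 and 92 bases before the start, and in 4.53% of all windows. The gamma-activated site, known from interferon-gamma responses, was met 2 times in Casp12, at 102 and 36 bases before the start, and in 8.33% of all windows. The CCAAT box was met 2 times in Casp12 and once in Casp8, and in 37.4% of all windows. The GC box, which SP1 binds, was met 4 times in Casp9, 3 times in Casp6 and 1 time in Pycard, and in 35.9% of all windows. The interferon-stimulated response element core (GAAA, then NN, then GAAA; 3.45% of all windows) and the TATA box TATAAA (13.6%) were in none of the 7 windows. None of the motifs searched was in the Casp1 window. A match or its absence concerns these letters in these windows only.

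The levels of the inflammatory caspases were higher in every female than in every male library, by very unequal amounts, while those of the apoptotic caspases overlapped between the sexes. Over all tested genes, the sexes did not overlap in 35.9%. Levels are CPM on TMM-scaled totals. Fold changes are on the log2 scale, female over male, with an SE derived from the edgeR test. This SE is the absolute fold change divided by the square root of the F statistic. Casp1, the protease that matures interleukin-1β and interleukin-18, had 53.1, 58.4 and 63.4 CPM in female libraries, against 1.26, 1.5 and 1.08 CPM in male libraries. These male values rest on 26, 34 and 19 counts, and the female ones on 1162, 1037 and 1482 counts. The sexes lay far apart, with means of 58.3 ± 5.12 CPM in female libraries and 1.28 ± 0.211 CPM in male ones (SD, n = 3 each) and a fold change of 5.49 ± 0.17. The ratio of summed levels was 45, with a 95% exact binomial interval of 36 to 56.9 for counting error.

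Casp4, the lipopolysaccharide sensor protease, had 182, 196 and 214 CPM in female libraries, against 86.6, 75.9 and 85.3 CPM in male libraries. All 3 female libraries were above the male ones, with means of 197 ± 16.3 CPM in female and 82.6 ± 5.85 CPM in male and a fold change of 1.26 ± 0.11. Casp12 had 96.8, 101 and 111 CPM in female libraries, against 73.2, 68.8 and 66.3 CPM in male libraries. Here too the sexes did not overlap, with means of 103 ± 7.43 CPM in female and 69.4 ± 3.47 CPM in male and a fold change of 0.57 ± 0.11. For Casp1, Casp4 and Casp12 the SD was 8.78%, 8.25% and 7.21% of the mean in female libraries, against 16.5%, 7.08% and 5% in male libraries.

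**Figure D1:**
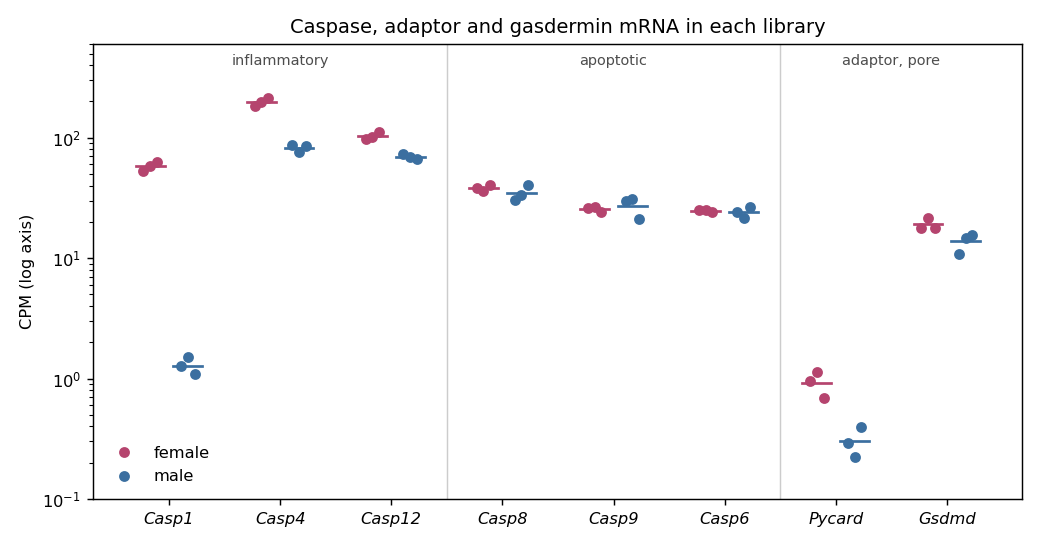
Each point is the CPM of 1 library (log axis), female left of male for each gene, and bars are means of 3 libraries. Casp1, Casp4, Casp12, Pycard and Gsdmd lie higher in all female libraries, and Casp8, Casp9 and Casp6 overlap.

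Among the apoptotic caspases, Casp8, the initiator that death receptors recruit, had 38.1, 36.1 and 40.7 CPM in female libraries, against 30.6, 33.2 and 40.1 CPM in male libraries. The highest male value, that of replicate 3, lay within the female range, and the fold change was 0.15 ± 0.13. Casp9, the initiator of the apoptosome, had 26.3, 26.5 and 24.2 CPM in female libraries, against 29.6, 30.8 and 21 CPM in male libraries. The male libraries lay on both sides of the female ones, male replicate 3 being the low one, and the fold change was -0.08 ± 0.16. Casp6, an effector caspase, had 25.1, 25.3 and 24.0 CPM in female libraries, against 24.1, 21.7 and 26.8 CPM in male libraries. Its levels overlapped as well, with a fold change of 0.04 ± 0.13. For all of these the male libraries were the more variable, with an SD of 5.98%, 5.11% and 2.68% of the mean in female libraries for Casp8, Casp9 and Casp6, against 14.2%, 19.7% and 10.4% in male libraries.

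Pycard, the adaptor, was scarce in both sexes. It had 0.960, 1.13 and 0.684 CPM in female libraries, against 0.291, 0.221 and 0.399 CPM in male libraries. The sexes did not overlap, but the values rest on 57 counts in all female and 18 in all male libraries, and the ratio of 3.06 had a 95% exact binomial interval of 1.77 to 5.52 that covers counting error only. Pycard passed the filter on low counts through its female libraries. Of its 50-base words, 11.7% also occur in transcripts of other genes, nearly all in Gm45205, which overlaps it on the opposite strand and had 9 counts in female and 8 in male libraries. No strand setting is given for the counting, so reads of this pair cannot be told apart. Gsdmd, the substrate that makes the pore, had 17.9, 21.4 and 17.8 CPM in female libraries, against 10.9, 14.8 and 15.7 CPM in male libraries. The gap between the lowest female and the highest male library was narrow, and the fold change was 0.46 ± 0.17.

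Casp1, Pycard and Gsdmd are abundant in macrophages, so 12 macrophage and leukocyte markers were set beside them. These summed to 29.8 to 38.8 CPM in female and 12.9 to 19.5 CPM in male libraries. Of the 12, 4 were tested and 2 rose by edgeR, which were Lyz2, a lysozyme gene, and Cd14, a lipopolysaccharide co-receptor gene. The defining markers Ptprc, Itgam, Tyrobp and Laptm5 had 0 counts in all 6 libraries, and 8 of the 12 stayed under 1 CPM in each.

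All 8 members passed the filter on low counts. Of these, 3 (Casp1, Casp4 and Casp12) were past the adjusted p of edgeR, all higher, where 9.68% of the 14932 tested genes were called higher, 8.62% lower and 18.3% in either direction. Levels of 5 of the 8 members did not overlap between the sexes, as was so for 35.9% of all tested genes. Since this contrast chose the members, these calls are no independent test, and nothing is read from the counts.

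**Figure D2:**
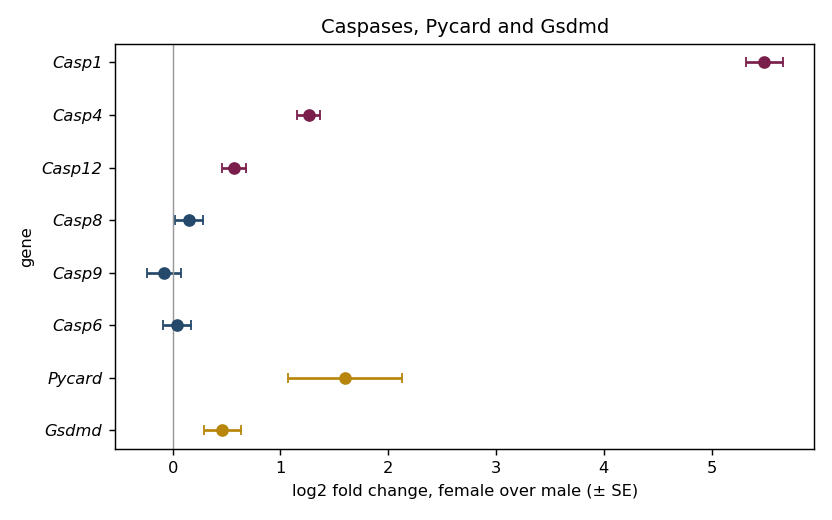
Points are log2 fold changes of female over male and bars are ± SE derived from the edgeR F statistic. The inflammatory caspases are in dark red, the apoptotic ones in dark blue and Pycard and Gsdmd in ochre. Casp1 stands at 5.49, Casp4 at 1.26 and Casp12 at 0.57, while Casp8, Casp9 and Casp6 lie at 0.15, -0.08 and 0.04.

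Levels of different genes were compared per length, as CPM per kb of the gene length in the deposited table. Casp4 was the most abundant caspase mRNA in every library, at 53.2 ± 4.39 CPM per kb in female and 22.3 ± 1.58 in male libraries. Casp1 came next in each female library (38.9 ± 3.42 CPM per kb), followed by Casp12 (26.8 ± 1.93). In each male library Casp1, at 0.856 ± 0.141 CPM per kb, was the lowest caspase with any count, below Casp12 (18.1 ± 0.904), Casp8 (12 ± 1.7), Casp9 (5.23 ± 1.03) and Casp6 (4.33 ± 0.450). In female libraries Casp8, Casp9 and Casp6 stood at 13.2 ± 0.792, 4.94 ± 0.252 and 4.44 ± 0.119 CPM per kb. The order of Casp9 and Casp6 was the same in every female library and differed between male ones, where their ranges overlap. Pycard was the lowest of the members in every library, at 0.243 ± 0.0587 CPM per kb in female and 0.0798 ± 0.0236 in male libraries.

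The inflammatory caspases together outweighed the apoptotic ones in both sexes, more so in female. Their summed levels were 119 ± 9.70 CPM per kb in female and 41.2 ± 1.95 in male libraries, while the apoptotic sum was 22.6 ± 0.462 in female and 21.5 ± 1.07 in male libraries. The ratio of these sums was 4.82, 5.35 and 5.60 in female libraries, against 2.10, 1.85 and 1.81 in male libraries. On the log2 scale the ratio was 2.39 ± 0.11 in female and 0.94 ± 0.12 in male libraries (SD, n = 3 each), a difference of 1.45. Casp1 made up 32.4%, 33.0% and 32.8% of the inflammatory sum in female libraries, against 1.94%, 2.55% and 1.76% in male libraries. With Casp1 left out, an alternative added after the data were seen, the log2 ratio was 1.82 ± 0.11 in female and 0.91 ± 0.12 in male libraries and the difference 0.91.

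**Figure D3:**
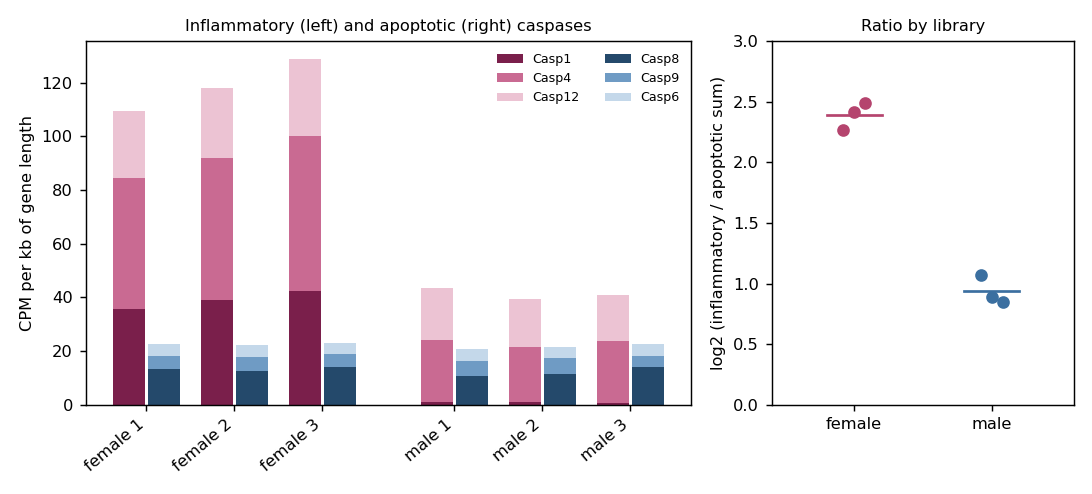
Stacked bars give the level of each caspase in CPM per kb of gene length for each library, inflammatory caspases in reds and apoptotic ones in blues, and the right panel gives the log2 ratio of the sums (points are libraries, bars means). The inflammatory sum averages 119 in female and 41.2 in male libraries, and the apoptotic sum 22.6 and 21.5.

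Casp1, Casp4 and Casp12 lie in this order on the plus strand of chromosome 9, from 5298517 to 5373032, a stretch of 74516 bases with gaps of 1562 and 8646 bases between the genes. The fold change was highest at Casp1 and lowest at Casp12, in the order of the genes. Within 1 Mb on either side there were 14 other genes, of which 6 were tested and 2 were called, both of them higher in female. Gria4, a glutamate receptor subunit gene, had 132 ± 5.22 CPM in female libraries and 33.6 ± 9.01 CPM in male ones (fold change 1.97 ± 0.18, edgeR adjusted p = 5.43e-05). Pdgfd, a platelet-derived growth factor gene, had 15.6 ± 4.03 CPM in female libraries and 4.81 ± 0.322 CPM in male ones (1.70 ± 0.21, edgeR adjusted p = 0.000339). Msantd4 (0.18 ± 0.10, edgeR adjusted p = 0.307), Kbtbd3 (0.47 ± 0.27, 0.291), Gm7390 (-0.43 ± 0.52, 0.645) and Aasdhppt (-0.02 ± 0.12, 0.923) were not called. The 3 caspases share no 50-base word with one another, since 0% of the words of Casp1 and of Casp12 and 0.240% of those of Casp4 occur in another gene's transcripts. For Casp8 the share was 4.37%, all of it with Gm20257, and Gm37760, which lies within Casp8 on the same strand, had 38 counts in female and 18 in male libraries. For Casp9 the share was 0.855%, for Casp6 0.0182% and for Gsdmd 0%.

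**Figure D4:**
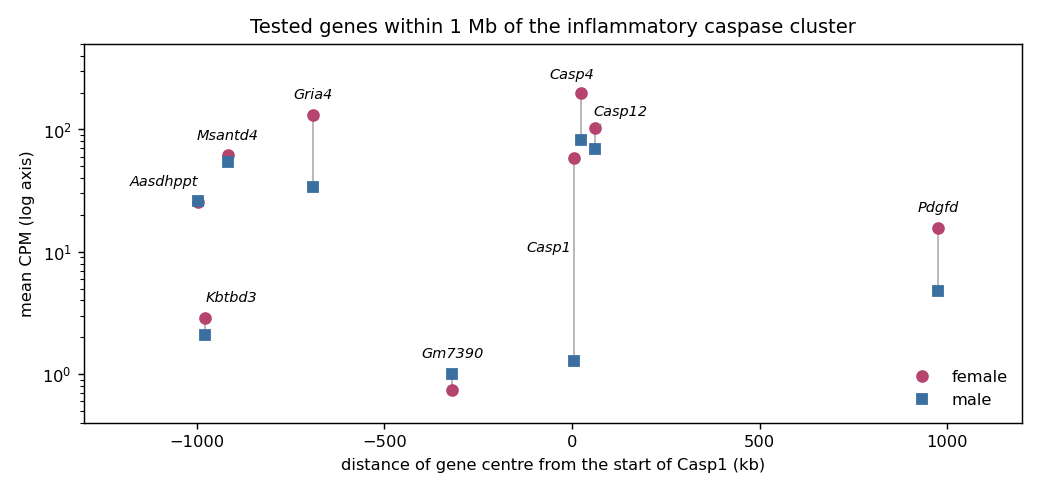
Mean CPM (log axis) of each tested gene within 1 Mb of the caspase cluster against the distance of the gene's centre from the start of Casp1, for female (circles) and male (squares) libraries, joined by a line. The gap is widest at Casp1, and Gria4 and Pdgfd also stand higher in female.

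Genes were also ranked by how closely their log2 CPM followed a caspase over the 6 libraries. Closest to Casp1 were the forkhead genes Foxl1 (Pearson r = 0.9998) and Foxc1 (0.9993). Closest to Casp4 were Sptlc2, a subunit gene of serine palmitoyltransferase (0.9994), and Slfn8 of the Schlafen family (0.9989), and closest to Casp12 were Ddx58, which encodes the RNA sensor RIG-I (0.9988), and Tor4a (0.9983). Foxl1 had 42.7 ± 3.66 CPM in female libraries and 4.82 ± 0.314 CPM in male ones, Sptlc2 had 177 ± 9.38 and 104 ± 5.6 CPM, and Ddx58 had 75.8 ± 13.3 CPM in female libraries and 31.6 ± 3.87 CPM in male ones. Closest to Casp8 were Prim1 (0.9939) and Dnajc2 (0.9937). All points share the 6 libraries and, for the inflammatory caspases, the step between the sexes, and 765 of 12220 genes had an r over 0.95 with Casp1, 694 with Casp4, 561 with Casp12 and 76 with Casp8.

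The other 95 genes of the caspase pathways were followed to see whether the sexes differed beyond the members. Of the 69 tested, 13 rose and 8 fell in female by edgeR, and 48 were not called, where 9.68% of all tested genes were called higher and 8.62% lower. Their median fold change was -0.01, and that of all tested genes was -0.01. Casp2, which responds to p53 and DNA damage, stood at 20.8 ± 1.62 CPM in female libraries and 23.8 ± 4.1 CPM in male ones and was not called (edgeR adjusted p = 0.459). Casp14, of the epidermis, had 0 counts in all libraries.

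Sensors that would bring Pycard and caspase-1 together were scarce. Of the 4 tested, 1 rose and 3 were not called. Of 13 sensor and helper genes 9 stayed under 1 CPM in every library, and Nlrp1a, Nlrp1b, Nlrp6 and Mefv had 0 counts in all of them, where 3 counts would be 0.128 to 0.171 CPM. Nlrp3, the best known sensor, had 12, 3 and 2 counts in female libraries, against 5, 2 and 1 in male libraries, too few to be tested. Aim2, a sensor of cytosolic DNA that signals through Pycard, had 50, 73 and 67 counts in female libraries, against 0, 0 and 3 in male libraries (edgeR adjusted p = 0.000659), a ratio of summed CPM of 61.1 with a 95% counting interval of 20.6 to 299. It passed the filter on low counts through its female libraries alone. Other sensors with few counts were not tested, among them Naip1 with 48 counts in all female and 5 in all male libraries, Nlrc4 with 10 and 42, and Nlrp10 with 0 and 36. Nek7, a partner of Nlrp3, was abundant at 113 ± 1.76 CPM in female libraries and 108 ± 11.7 in male ones, and was not called (edgeR adjusted p = 0.754).

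Of the other inflammasome substrates and effectors of lytic death, 3 were tested, of which 1 fell and 2 were not called. Il1b, a cytokine that caspase-1 matures, had 0 counts in all 6 libraries, and Il18, another, had 1.44 ± 0.502 CPM in female libraries and 0.996 ± 0.141 CPM in male ones (edgeR adjusted p = 0.443). Gsdme, a gasdermin that is cut during apoptosis, had 29.4 ± 3.94 CPM in female libraries and 23.3 ± 1.85 CPM in male ones, a fold change of 0.33 ± 0.14 that was not called (edgeR adjusted p = 0.147, and 0.0285 without male replicate 3). Ninj1, which ruptures the membrane of dying cells, fell, with 15.0 ± 2.14 CPM in female libraries and 25.6 ± 0.784 CPM in male ones (-0.77 ± 0.15, edgeR adjusted p = 0.00454).

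Of the regulators of these genes, Irf1 (26.0 ± 2.97 CPM in female libraries and 29.5 ± 3.78 CPM in male ones, edgeR adjusted p = 0.454) and Irf2 (28 ± 1.72 and 27.9 ± 2.02 CPM, 0.996), which act on caspase and gasdermin promoters, were not called.

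Around caspase-8, 13 genes of death receptors and necroptosis were tested, of which 2 rose, 2 fell and 9 were not called. Ripk3, the kinase of necroptosis, had 23.1, 22.0 and 25.4 CPM in female libraries, against 10.9, 12.5 and 11.8 CPM in male libraries, and rose by 1.00 ± 0.14 (edgeR adjusted p = 0.00063). Zbp1, a nucleic acid sensor that binds Ripk3, had 14.6, 17.1 and 18.3 CPM in female libraries, against 4.65, 3.45 and 3.93 CPM in male libraries. It rose by 2.05 ± 0.18 without overlap (edgeR adjusted p = 3.89e-05), and Mlkl, which Ripk3 activates, stood at 25.4 ± 2.33 CPM in female libraries and 21.8 ± 2.52 CPM in male ones and was not called (0.332). The receptor genes Tnfrsf1a (236 ± 7.88 CPM in female libraries and 304 ± 17 CPM in male ones, -0.36 ± 0.10, edgeR adjusted p = 0.0317) and Tnfrsf10b (47.9 ± 1.02 and 62.4 ± 4.43 CPM, -0.38 ± 0.11, 0.0322) fell. The Tnfrsf1a call ended without any 1 female library or male replicate 2 (0.11 to 0.138), and that of Tnfrsf10b without any 1 library but male replicate 3 (0.0739 to 0.146) and with no filter (0.0566). Fas (-0.41 ± 0.15, edgeR adjusted p = 0.103), the adaptor Fadd (0.02 ± 0.16, 0.944) and the inhibitor Cflar (0.01 ± 0.18, 0.974) were not called.

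On the mitochondrial side, of 9 tested pro-apoptotic BCL2 family genes, 3 rose, 1 fell and 5 were not called. Those that rose were the BH3-only genes Pmaip1 (Noxa; 12.6 ± 2.18 CPM in female libraries and 5.01 ± 0.416 CPM in male ones, 1.33 ± 0.19, edgeR adjusted p = 0.000818), Bid, the caspase-8 substrate that links death receptors to mitochondria (10.5 ± 1.04 and 4.66 ± 1.03 CPM, 1.17 ± 0.21, 0.00324), and Bcl2l11 (Bim; 47.9 ± 3.78 and 25.2 ± 5.98 CPM, 0.93 ± 0.17, 0.00451). Bok, a relative of Bax and Bak1 at 9.94 ± 0.939 CPM in female libraries and 18.3 ± 2.58 CPM in male ones, fell by 0.88 ± 0.16 in log2 units (edgeR adjusted p = 0.004), and Bax was not called (-0.07 ± 0.17, 0.839). Of the 4 tested anti-apoptotic genes, edgeR called 0, also at an unadjusted p under 0.05, DESeq2 0 and limma-voom 1. Mcl1 had 168 ± 2.83 CPM in female libraries and 172 ± 5.40 CPM in male ones, Bcl2l1 had 96.4 ± 3.68 and 97.4 ± 14.4 CPM, and Bcl2 had 22.4 ± 0.935 and 23.2 ± 2.31 CPM.

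Of 9 apoptosome and IAP genes, Diablo, which frees caspases from IAP proteins, rose by 0.68 ± 0.19 (7.8 ± 1.1 CPM in female libraries and 4.89 ± 0.451 CPM in male ones, edgeR adjusted p = 0.0358), and the other 8 were not called. The Diablo call ended without any 1 library but male replicate 3 (0.0533 to 0.155). Apaf1, the scaffold that activates caspase-9, had 69.7 ± 6.5 CPM in female libraries and 60.2 ± 13.8 CPM in male ones (edgeR adjusted p = 0.463). X-linked Xiap, an inhibitor of caspase-9, had 95 ± 7.58 and 95.3 ± 34.7 CPM (0.993, and 0.0407 with a fold change of -0.27 without male replicate 3).

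Of 11 substrates of the late phase of apoptosis, 3 rose, 2 fell and 6 were not called. Gas2, a cytoskeletal protein that caspases cut, had 47.4, 52.3 and 57.7 CPM in female libraries, against 26.4, 26.3 and 30 CPM in male libraries. It rose by 0.93 ± 0.12 (edgeR adjusted p = 0.000521), the channel gene Panx1 by 0.95 ± 0.25 (0.0267) and Parp1, a DNA repair enzyme, by 0.57 ± 0.11 (0.0061). The actin-severing gene Gsn, at 545 ± 18.5 CPM in female libraries and 1110 ± 126 CPM in male ones, fell by 1.03 ± 0.12 in log2 units (edgeR adjusted p = 0.000207) and the lamin gene Lmna by 0.57 ± 0.14 (0.0193). The Panx1 call ended without female replicate 2, female replicate 3 or male replicate 1 (0.0727 to 0.119), and that of Lmna without any 1 female library or male replicate 2 (0.0576 to 0.0956).

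Of 8 genes tied to caspase-12 through stress of the endoplasmic reticulum, Ddit3 (CHOP) rose by 0.54 ± 0.17 (edgeR adjusted p = 0.0496), and the adaptor Traf2 (-0.66 ± 0.14, 0.00887) and the calpain gene Capn1 (-0.43 ± 0.13, 0.0434) fell. The Ddit3 call ended under RLE scaling (0.0532) and without any 1 library but male replicate 3 (0.0881 to 0.198), and that of Capn1 without any 1 female library or male replicate 2 (0.0983 to 0.161). Traf2 had 19.5 ± 1.89 CPM in female libraries and 30.8 ± 3.29 CPM in male ones. Hspa5, the chaperone of this stress response, had 1200 ± 88.6 CPM in female libraries and 1168 ± 164 CPM in male ones and was not called (edgeR adjusted p = 0.878).

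**Figure D5:**
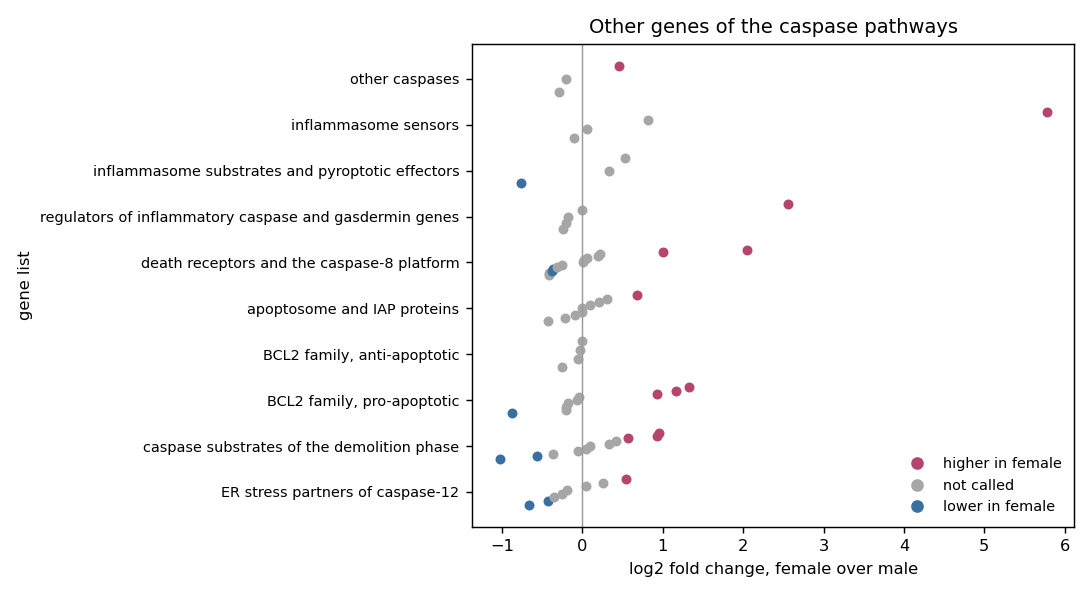
Each point is the log2 fold change of female over male of 1 tested gene that is not a member, by list, red where called higher, blue where called lower and grey where not called by edgeR. Of the 69 genes 13 were higher and 8 lower, and the far right point is Aim2, whose male value rests on 3 counts.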

How the data were processed

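The 6 libraries are RNA-seq of cultures labelled as aortic endothelium. Raw counts per gene were deposited as whole numbers, and the authors did not normalize them. The gene length used is the one in the deposited table. HISAT2 2.0.5 and featureCounts 1.5 are named in the submitters' processing notes, without a genome build or strand setting. Of the gene identifiers, 99.9% are in GENCODE M21 (GRCm38), and 98.3% of those have the same coordinates. Whether the library kit marks strand is not settled by the labels' protocols.

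Counts of all genes were fitted with edgeR 4.0.16 in R 4.3.3 (quasi-likelihood F test, robust, TMM scaling, filterByExpr with a minimum count of 10), which left 14932 genes. P-values were adjusted over these by Benjamini-Hochberg, and a gene was called under 0.05. TMM factors were 0.969 to 1.02. The code of the fit was run on simulated counts in which all genes had the same variability and no library stood apart. These settings differ from the data, so no error rate for the data is drawn from the simulation. Chi-square per degree of freedom between libraries of a sex was at least 7.43, so they differed by more than counting error. Each library was treated as a sample, though this spread may be technical and does not show that the libraries are independent. The alternatives were RLE scaling, DESeq2 1.42.0, limma-voom (limma 3.58.1) with quality weights, no filter, a mean of at least 50 counts, a replicate block, each library left out, and an adjusted p under 0.01. Likeness used log2(CPM + 0.5) of tested autosomal protein-coding genes.

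The members and lists were chosen with earlier results of these data known. Named genes were the members, the other caspases, a set of key regulators, up to 4 called genes per list with the largest change and a mean of at least 10 counts, the 2 genes most like each of 4 caspases, and the neighbours of the cluster. Other sensors, Parp1, Nek7, Hspa5 and the markers were named after their values were seen. Ddit3 has 2 rows in the table, of which the longer gene was used. All list entries were found in the table. Results of some list genes are counted in the totals but not reported here.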

Additional observations from a re-analysis of the deposited data

How the results depend on the processing

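Of 95 fold changes of the 8 members under the alternatives, 91 moved by less than the spread between replicates, and the log2 fold change of Casp1 was 5.30, of Casp6 0.17 and of Pycard 1.96 under limma-voom, and of Pycard 1.82 without male replicate 3. Leaving out each library gave 5.39 to 5.62 for Casp1, 1.19 to 1.30 for Casp4, 0.50 to 0.61 for Casp12, 0.06 to 0.26 for Casp8, -0.24 to 0.01 for Casp9 and -0.04 to 0.11 for Casp6. The difference in the inflammatory to apoptotic log2 ratio (1.45) was 1.18 with sums not divided by gene length, 2.40 as a difference of mean log2 fold changes, 0.91 with Casp1 left out, and 1.41 to 1.52 with each library left out. These alternatives weigh Casp1 differently by construction.

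Of the pathway genes, limma-voom called 19 higher and 21 lower, an adjusted p under 0.01 left 9 and 4, and leaving out each library gave 9 to 17 higher and 4 to 19 lower, highest without male replicate 3. Over all genes, where the main counts were 1446 higher and 1287 lower, limma-voom called 3305 and 3289, an adjusted p under 0.01 left 900 and 835, and leaving out each library gave 967 to 2508 and 903 to 2543, again highest without male replicate 3. Of these shifts the cause was not tested. For the named pathway genes, the sign turned for 4 that were not called. These were Bax (0.07 under limma-voom, -0.22 to 0.15 with each library left out), Bcl2l1 (0.02, -0.12 to 0.09), Cflar (-0.12, -0.18 to 0.16) and Fadd (-0.07, -0.06 to 0.06). Xiap and Irf2, whose main fold change was 0.00, also took either sign and are not among them. With each library left out, Xiap had -0.27 to 0.22 and Irf2 -0.06 to 0.05.

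With the replicate number as a block, 1619 genes were higher and 1449 lower, 13 and 8 of them pathway genes. Whether the numbers pair the samples was not settled, since deviations of same-numbered libraries from their group means correlated at 0.206, -0.00405 and 0.152, and the library closest to female replicate 2 was male replicate 3 (0.104). Depth limits Pycard and the untested sensors, whose levels rest on few counts.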
